A study of Homo sapiens with 6 samples.

Results

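The core circadian clock genes are the 3 activators ARNTL (also called BMAL1), CLOCK and NPAS2 and the 5 repressors PER1, PER2, PER3, CRY1 and CRY2. They were chosen by symbol, and all 8 were listed in each of the 6 libraries. They stood among 17602 genes in the SR2211 experiment, 16293 in the XY011 experiment and 22738 rows in the ENZ experiment, where some rows share a symbol. The cells were C4-2B, an established human prostate cancer line that derives from LNCaP and forms bone metastases. They were kept in medium with mainly charcoal-stripped serum, which is low in steroids, and RNA was collected after 48 h with vehicle or compound. Each of 3 experiments had 1 vehicle and 1 treated library: SR2211, a synthetic nuclear receptor ligand, at 5 µM, XY011, known here by its code alone, at 5 µM, and the androgen receptor antagonist enzalutamide (ENZ) at 20 µM. Titles and treatment notes name these agents, while the extraction notes name XY018 in place of XY011 and SR2211 for the ENZ pair. No library had a replicate, so differences within an experiment carry no replicate error.

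In the clock, ARNTL pairs with CLOCK or with its relative NPAS2, and the pair binds E-box sequences to switch on the PER and CRY genes. PER and CRY proteins build up, enter the nucleus and inhibit that pair, which closes a daily feedback loop. A second loop sets ARNTL itself: ROR receptors activate it and REV-ERB receptors repress it through a shared element. Each culture was sampled at 1 time, and the labels give neither the hour of day nor a synchronising step. A difference in level and a difference in phase therefore cannot be told apart.

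The promoters of ARNTL, PER1 and CRY2 are shown because these 3 genes were the only members to pass a log2 change of 1 in any experiment. Sequences and positions are RefSeq's on GRCh38.p14 and run 5′ to 3′, with the transcription start as position 1. Capitals mark matches, on either strand, to an E-box (CACGTG) or its variant CACGTT, to a ROR and REV-ERB element core (TAGGTCA) or its variant TAGGTTA, or to a D-box (TTANGNAA).
ARNTL, -200 to 1, chr11:13277590-13277790, plus strand: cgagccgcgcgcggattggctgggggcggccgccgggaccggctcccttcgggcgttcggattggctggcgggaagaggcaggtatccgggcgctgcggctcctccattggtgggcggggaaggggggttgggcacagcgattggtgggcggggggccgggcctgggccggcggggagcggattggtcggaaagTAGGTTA
ARNTL, 22 to 50, chr11:13277811-13277839, plus strand: ggcagaaagTAGGTCAgggacggaggtgc
PER1, -200 to -1, chr17:8152405-8152604, minus strand: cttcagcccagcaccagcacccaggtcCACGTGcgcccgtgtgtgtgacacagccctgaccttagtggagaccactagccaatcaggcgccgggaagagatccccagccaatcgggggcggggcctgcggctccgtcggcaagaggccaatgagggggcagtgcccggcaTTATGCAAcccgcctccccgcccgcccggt
CRY2, -200 to -1, chr11:45847275-45847474, plus strand: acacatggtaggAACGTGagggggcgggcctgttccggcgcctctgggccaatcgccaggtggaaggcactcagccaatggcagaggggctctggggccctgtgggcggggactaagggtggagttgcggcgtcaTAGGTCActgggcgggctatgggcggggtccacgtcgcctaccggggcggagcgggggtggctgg

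ARNTL held TAGGTTA from -6 to 1 and TAGGTCA from 31 to 37, and CRY2 held TAGGTCA from -65 to -59. Among all 35116 RefSeq windows of the same length, from 250 bases before to 50 after a start, 1.85% held TAGGTCA and 1.10% held TAGGTTA. Of the 12 member starts, 2 held TAGGTCA and 1 held TAGGTTA. ARNTL, CLOCK, PER3 and CRY2 have 2 starts each, and all matches of each gene lay in 1 of them. PER1 had CACGTG from -173 to -168, in 1 of 12 starts (7.26% of all windows). CACGTT was read on either strand in 4 of 12 starts, of PER2, CRY1, CRY2 and CLOCK (5.34%). D-box letters were found in 4 of 12 starts, of PER1, PER2, PER3 and ARNTL (10.2%). The ARNTL match, from 14 to 21, lies between the printed stretches and shares no base with the other motifs. No window of the 12 member starts held the cAMP response element TGACGTCA (1.85%), and the NPAS2 window held none of the 6 motifs. These are matches of letters in these windows and not measured sites. The motifs were chosen with the sequences in view, so the shares of all windows are no test of the members' matches.

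Levels are given as deposited, in RPKM for the SR2211 experiment and FPKM for the others, which scale reads or fragments for gene length and library size. In the vehicle libraries the 8 genes were of low to middling level. In the SR2211 vehicle they ran from 2.50 RPKM for NPAS2 to 13.4 RPKM for PER3, and in the XY011 vehicle from 1.90 to 13.2 FPKM for the same genes. PER3 led both, CLOCK came next, and CRY2 and NPAS2 were lowest. These vehicles differed for the members by a log2 value of 0.44 at most (CRY1), with none of 8 past 1, where 11.0% of 12496 genes differed by that much. The ENZ vehicle had another order: PER1 was highest at 17.5 FPKM, ARNTL followed at 10.7 and PER2 was lowest at 2.70. It differed from the SR2211 vehicle by a log2 value of 1 or more for 3 members (NPAS2, PER1 and CRY2) and from the XY011 vehicle for 4 (those and CRY1). For all genes the shares were 33.8% and 38.7%. The tables were made separately, so a level set across experiments mixes culture, library and processing.

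**Figure D1:**
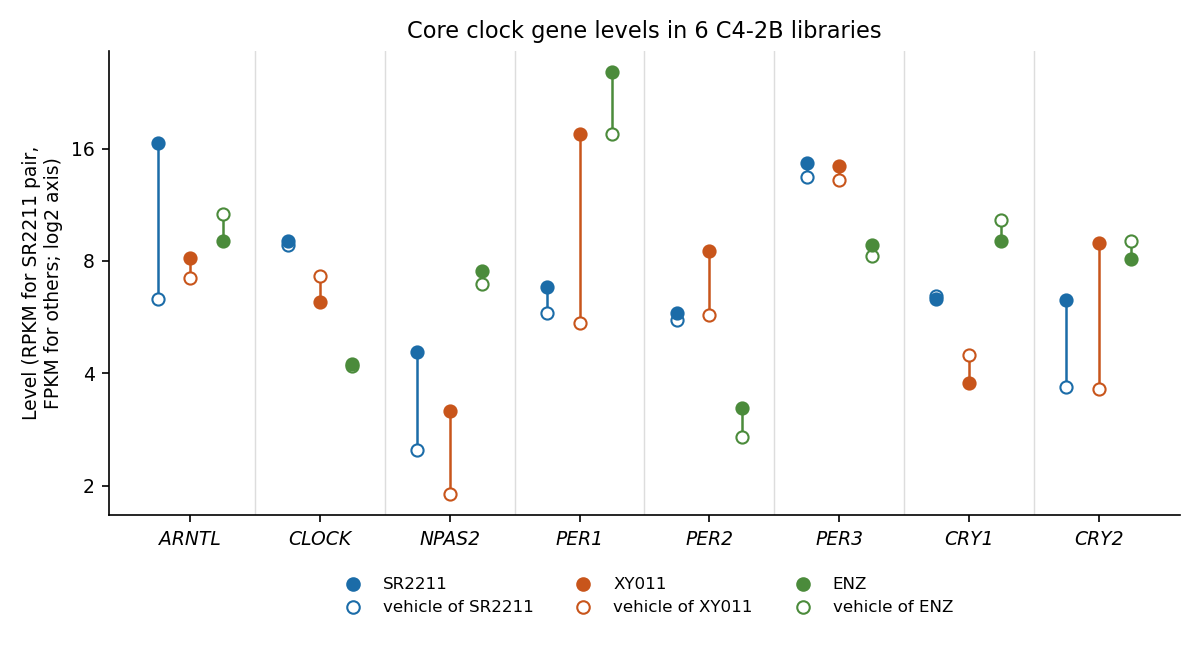
Level of each core clock gene (log2 axis, RPKM in the SR2211 pair and FPKM in the others) in 6 libraries, with open circles for vehicle and filled circles for the treated library of the same experiment. ARNTL spans 6.34 to 16.5 RPKM in the SR2211 pair, and PER1 spans 5.46 to 17.5 FPKM in the XY011 pair. The ENZ pairs are short except that of PER1 (17.5 to 25.7 FPKM).

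Changes were computed as log2((treated + 1)/(vehicle + 1)), and a call, higher or lower, needed a size of 1 or more. All 8 members passed the filter of 1 or more in either library in every experiment. With SR2211, 1 of 8 members was called higher and 0 lower, against 5.1% higher and 5.76% lower of 12145 genes. With XY011, 2 of 8 were higher and 0 lower, against 7.59% and 13.2% of 12611. With ENZ the count was 0 in both directions, against 3.68% and 4.68% of 19269. The members' median change was 0.16 with SR2211, 0.32 with XY011 and 0.05 with ENZ, beside medians of -0.07, -0.14 and -0.02 over all genes tested. Scaling each pair on its median gene or by quantiles moved the median of all genes in the XY011 pair by 0.12 and 0.13, and the share of increases among its calls from 36.6% to 47.2% and 49.3%. In the SR2211 pair that share went from 47.0% to 55.8% and 52.5%, so that increases became the majority. The members' median in the XY011 pair became 0.44 and 0.45, and the same number of members was called.

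ARNTL (gene 406, listed as ARNTL/Bmal in the SR2211 tables), the obligate partner in the activator pair, stood at 6.34 RPKM in vehicle and 16.5 RPKM with SR2211. It was at 7.19 and 8.14 FPKM in the XY011 pair, and at 10.7 and 9.08 FPKM in the ENZ pair. The SR2211 library was thus the highest of the 6, above all 3 vehicles, and the other treated libraries lay within the range of the vehicles. The log2 change was 1.26 with SR2211, a size of increase that 3.02% of tested genes exceeded, 0.16 with XY011 and -0.21 with ENZ. Its read numbers in the SR2211 pair were 147 and 382, a ratio of 2.61 with an exact 95% interval of 2.15 to 3.18.

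Read numbers were recovered for the SR2211 pair alone, as the smallest whole numbers that give the deposited ratio at a depth of 8.20 M and 8.16 M mapped reads. Each implied a whole gene length in bases for 8 of 8 members, within 0.01 base. For 2 alone (PER3 and CRY2) was it the length of a GENCODE 29 transcript. It exceeded the longest transcript for CLOCK (10981 bases, longest 10304) and for PER1 (4717, longest 4707). Multiples of the read numbers would keep the ratio and narrow the interval. They would imply a length above each member's longest GENCODE 29 transcript, a limit that CLOCK and PER1 pass already. The intervals cover counting error only, not the spread between cultures.

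CLOCK (gene 9575), the usual partner of ARNTL, had 8.85 RPKM in vehicle and 9.05 RPKM with SR2211. It was at 7.28 and 6.22 FPKM in the XY011 pair, and at 4.20 and 4.23 FPKM in the ENZ pair. The log2 changes of 0.03, -0.20 and 0.01 were no larger than the difference of 0.25 between the SR2211 and XY011 vehicles, and the SR2211 ratio of 1.02 had a counting interval of 0.926 to 1.13. NPAS2 (gene 4862), which can stand in for CLOCK, went from 2.50 to 4.56 RPKM with SR2211 and from 1.90 to 3.18 FPKM with XY011. It was at 6.94 and 7.51 FPKM in the ENZ pair. It was the lowest member in all 4 libraries of the SR2211 and XY011 experiments, treated or not. Its changes of 0.67, 0.53 and 0.10 did not pass the size rule, and the SR2211 ratio was 1.83 (82 and 149 reads, interval 1.38 to 2.42). CLOCK exceeded NPAS2 by 3.54 and 3.83 times in these vehicles and by 1.98 and 1.96 times with SR2211 and XY011, while in the ENZ pair it was below NPAS2, at 0.605 and 0.563 times.

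PER1 (gene 5187), an early-response member of the PER family, was at 5.46 FPKM in vehicle and 17.5 FPKM with XY011. It was at 5.79 and 6.83 RPKM in the SR2211 pair and at 17.5 and 25.7 FPKM in the ENZ pair. The XY011 library was thus the highest of the 4 in the SR2211 and XY011 experiments, but no higher than the ENZ vehicle. The log2 change was 1.52 with XY011, exceeded by 2.65% of tested genes, 0.21 with SR2211 and 0.53 with ENZ, where it was the largest increase among the members. In the SR2211 pair the reads were 224 and 263, a ratio of 1.18 with an interval of 0.983 to 1.42.

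PER2 (gene 8864), the main partner of CRY proteins in the repressor complex, went from 5.75 to 8.49 FPKM with XY011. It was at 5.56 and 5.79 RPKM in the SR2211 pair and at 2.70 and 3.23 FPKM in the ENZ pair. The changes of 0.49, 0.05 and 0.19 were all positive, and none passed the size rule. PER3 (gene 8863), the PER gene least needed for rhythm, had small changes. It was at 13.4 and 14.6 RPKM with SR2211, 13.2 and 14.4 FPKM with XY011, and 8.26 and 8.83 FPKM with ENZ, log2 changes of 0.12, 0.12 and 0.09. As PER1 differed and PER3 hardly did, the PER1 share of the summed PER level was 22.4% in the XY011 vehicle and 43.3% with XY011, and the PER3 share 54.1% and 35.7%.

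CRY1 (gene 1407), the stronger repressor of the CRY pair, was at 6.45 and 6.33 RPKM in the SR2211 pair. It was at 4.48 and 3.77 FPKM with XY011 and at 10.3 and 9.07 FPKM with ENZ. Its changes of -0.02, -0.20 and -0.17 were below the 0.44 between the SR2211 and XY011 vehicles, and the first turned to 0.05 after centring on the median gene. CRY2 (gene 1408), its paralogue, went from 3.68 to 6.29 RPKM with SR2211 and from 3.64 to 8.94 FPKM with XY011. With ENZ it was at 9.04 and 8.09 FPKM. The vehicles of the SR2211 and XY011 experiments differed by 0.01 on the log2 scale. Both treated libraries were above them and below the ENZ vehicle. The changes were 0.64, 1.10 and -0.14, and the SR2211 reads of 127 and 216 gave a ratio of 1.71 (interval 1.37 to 2.14). The CRY2 share of the summed CRY level was 36.4% and 49.9% in the SR2211 pair, 44.8% and 70.3% in the XY011 pair, and 46.7% and 47.2% in the ENZ pair.

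**Figure D2:**
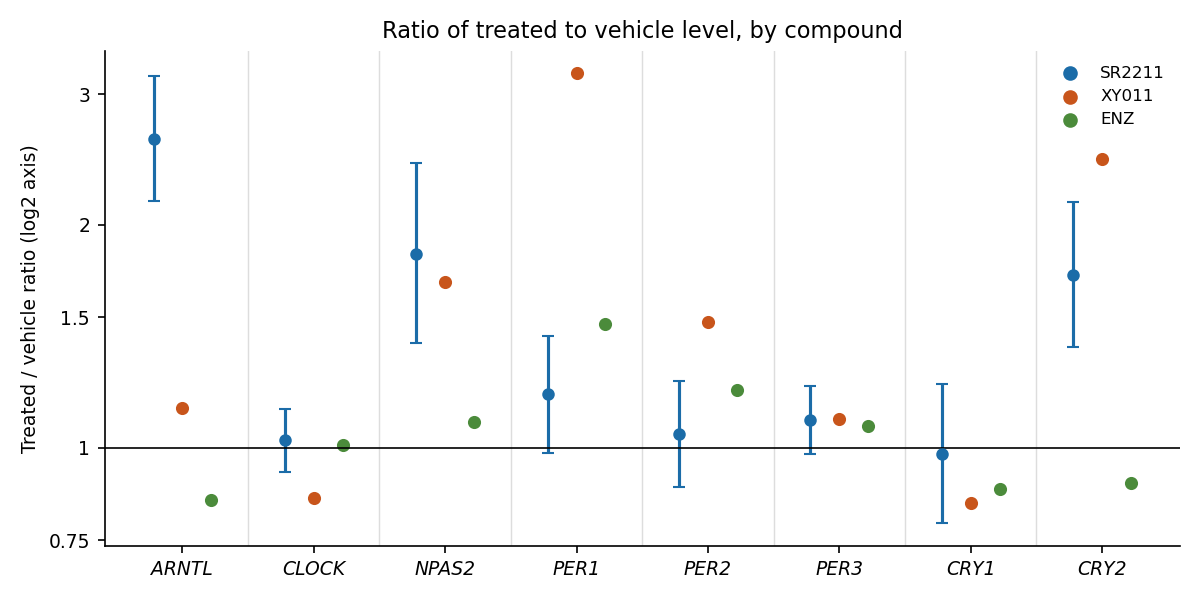
Ratio of the treated to the vehicle level (log2 axis) for each gene and compound. Bars are exact 95% counting intervals, which exist for the SR2211 pair alone, and lie above 1 for 3 genes (ARNTL, NPAS2 and CRY2) and include 1 for the other 5.

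**Figure D3:**
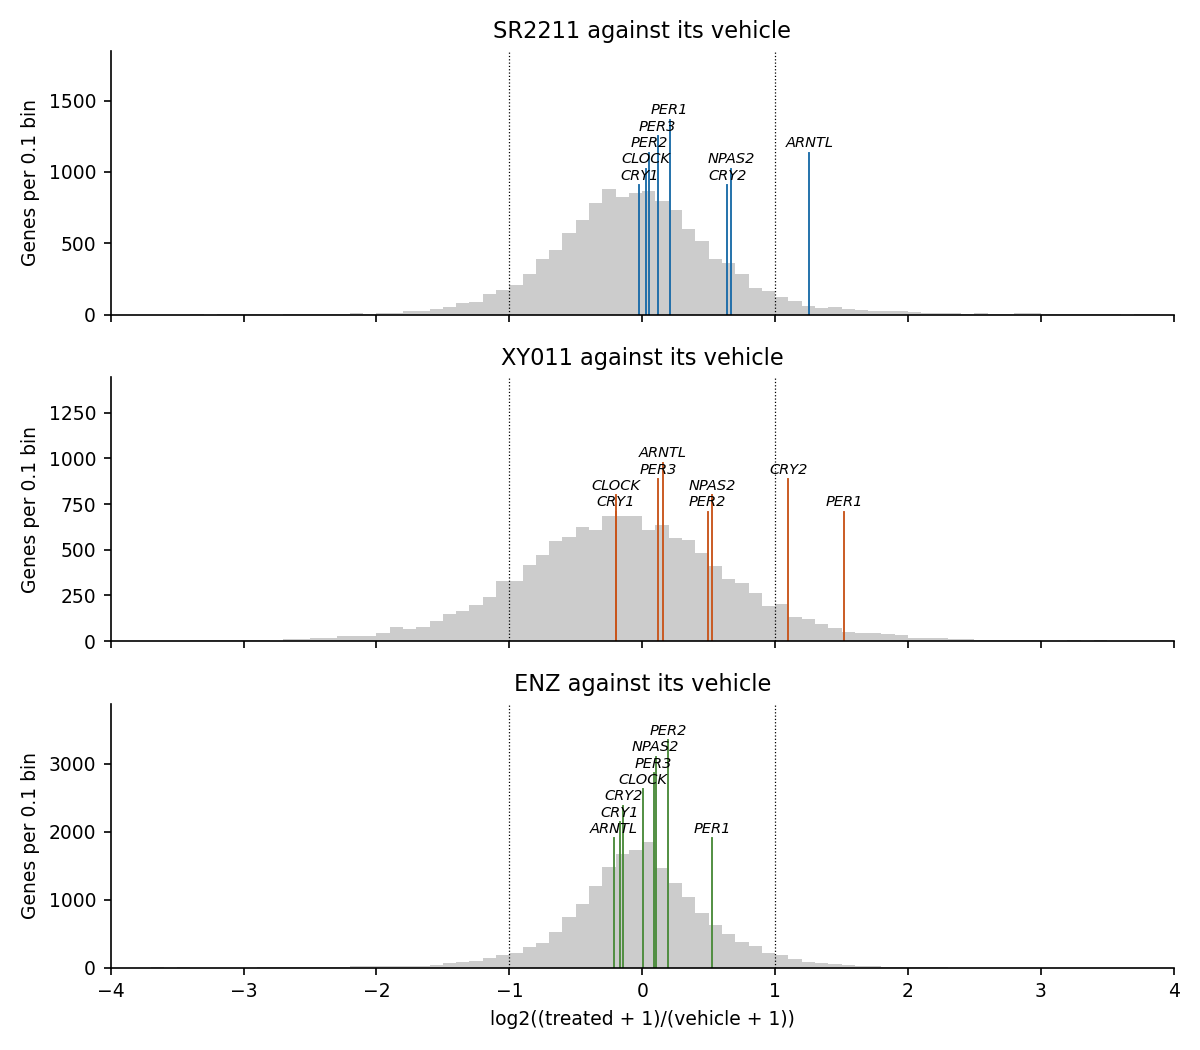
Number of tested genes per 0.1 of log2((treated + 1)/(vehicle + 1)) in each experiment, drawn from -4 to 4, with coloured lines at the core clock genes and dotted lines at -1 and 1. ARNTL in the top panel and PER1 and CRY2 in the middle panel lie past the upper line, and all 8 genes lie between the lines with ENZ.

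Summed over genes, the activators went from 17.7 to 30.2 RPKM with SR2211 and the repressors from 34.9 to 39.9. With XY011 the activators were at 16.4 and 17.5 FPKM and the repressors at 32.5 and 53.1. The total of the 8 genes was close in both treated libraries, 70.0 RPKM and 70.6 FPKM, from 52.6 and 48.9 in the vehicles. The ratio of repressors to activators, 1.97 and 1.99 in these vehicles, was 1.32 with SR2211 and 3.03 with XY011. In the ENZ pair the total was 69.6 FPKM in vehicle and 75.7 FPKM with ENZ, so that vehicle already stood near the treated totals above. Totals set across experiments mix culture, library and processing. With ENZ the activators were at 21.8 and 20.8 FPKM, the repressors at 47.8 and 54.9, and the ratio at 2.19 and 2.64. These ratios were computed after the values were seen and have no test.

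**Figure D4:**
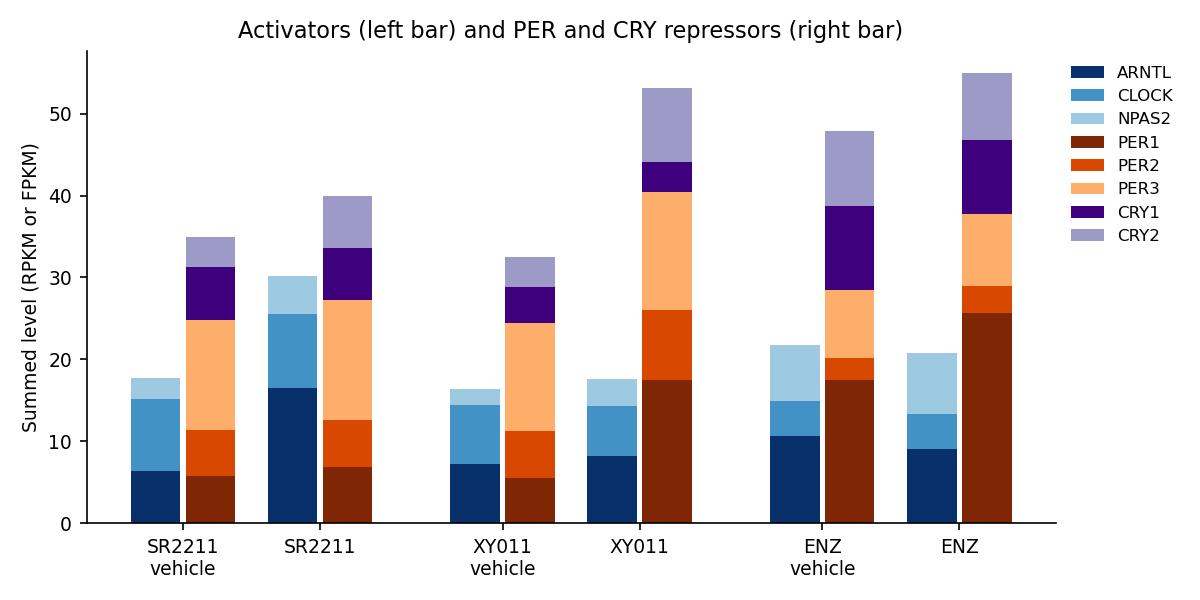
Summed level (RPKM for the SR2211 pair, FPKM for the others) of the 3 activators (left bar) and the 5 repressors (right bar) in each library, split by gene. The activator bar goes from 17.7 to 30.2 with SR2211, mainly in ARNTL, and the repressor bar from 32.5 to 53.1 with XY011, mainly in PER1 and CRY2.

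SR2211 and XY011 were given at the same dose and time and could be set side by side for 8 pairs of changes. The change with XY011 minus that with SR2211 was -1.10 for ARNTL and 1.31 for PER1, and 0.46 or less in size for the other 6. Of 11630 genes tested with both, 4.19% had a larger difference than ARNTL and 2.14% a larger one than PER1. CRY2 differed by 0.46, PER2 by 0.44, CLOCK by -0.23, CRY1 by -0.18, NPAS2 by -0.14 and PER3 by 0.00. With 1 pair per compound no test of these differences and no interval could be had, so small differences do not show that the compounds act alike. The ENZ dose was different: its values are given beside the others, and no difference from them was tested.

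Changes shared by SR2211 and XY011 were tested with limma on the 4 libraries of these experiments, with experiment as a term, over 12060 genes and with Benjamini-Hochberg adjustment. With 1 residual degree of freedom, the error is the spread between 2 compounds in 2 experiments, moderated by a prior of 5.22 degrees of freedom. CRY2 rose by 0.87 (log2, SE 0.21, limma adjusted p = 0.0364, higher in 2 of 2 experiments). It was the 1 of 8 members that passed, where 8.87% of genes passed as higher and 13.2% as lower. The other 7 did not pass: NPAS2 had 0.60 (adjusted p = 0.0742), PER1 0.86 (0.106) and ARNTL 0.71 (0.128), while PER2, PER3, CLOCK and CRY1 lay between -0.11 and 0.27 with adjusted p of 0.376 or more. The limma adjusted p of CRY2 ran from 0.0136 to 0.208 over 7 other settings and missed the threshold under 3, a pseudocount of 0.1 (0.0841), quantile scaling (0.0520) and no experiment term (0.208). After centring on the median gene, NPAS2 (0.0407) and PER1 (0.0439) passed as well, and the share of increases among all calls went from 40.1% to 49.8%, and under quantile scaling to 50.7%. With a pseudocount of 0.1 or without the experiment term limma called 0 of the 12060 genes (4189 and 2340 at an unadjusted p under 0.05), so each limma call given here is lost under both.

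The other clock genes were described from lists by role. NR1D1 and NR1D2, the REV-ERB genes, whose products repress ARNTL, were called higher with SR2211 and with XY011, and neither passed the size rule with ENZ. NR1D1 was at 3.14 and 13.5 RPKM in the SR2211 pair, at 3.95 and 54.5 FPKM in the XY011 pair and at 3.61 and 7.19 FPKM in the ENZ pair. NR1D2 was at 9.58 and 40.5 RPKM, 5.83 and 55.3 FPKM, and 9.97 and 12.2 FPKM. Both rose in limma over the SR2211 and XY011 experiments, NR1D1 by 2.65 (limma adjusted p = 0.0113) and NR1D2 by 2.51 (0.00717). The log2 changes with SR2211 and XY011 were 1.81 and 3.49 for NR1D1 and 1.97 and 3.04 for NR1D2. ARNTL passed the size rule in the SR2211 experiment alone, and a link between REV-ERB and ARNTL levels was not tested.

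Of 4 D-box factors, 2 were higher with SR2211 (DBP and NFIL3), the same genes were higher and HLF lower with XY011, and none was called with ENZ. These lists are small and were chosen with earlier results of these data known. The shares of all genes called are those given above (with XY011, 7.59% higher and 13.2% lower). DBP, an output gene that E-boxes drive, rose by 1.78 in limma (adjusted p = 0.0159), and HLF fell by 0.85 (limma adjusted p = 0.0384). Of 4 genes listed as E-box repressors, a role not tested here, BHLHE40 was higher with SR2211. With XY011, BHLHE40 and CIART were higher and TIMELESS lower. CIART, a repressor of the CLOCK and ARNTL pair, was also higher with ENZ, at 5.48 and 12.1 FPKM. Of 20 kinases, ligases and other modifiers of PER and CRY proteins, none was called with SR2211 or ENZ and 1 with XY011, where 7.59% of all genes were higher. That gene, GSK3B, a kinase that marks clock proteins, rose in limma by 1.04 (adjusted p = 0.0198), and the casein kinase genes CSNK1D (0.184) and CSNK1E (0.0899) did not pass.

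**Figure D5:**
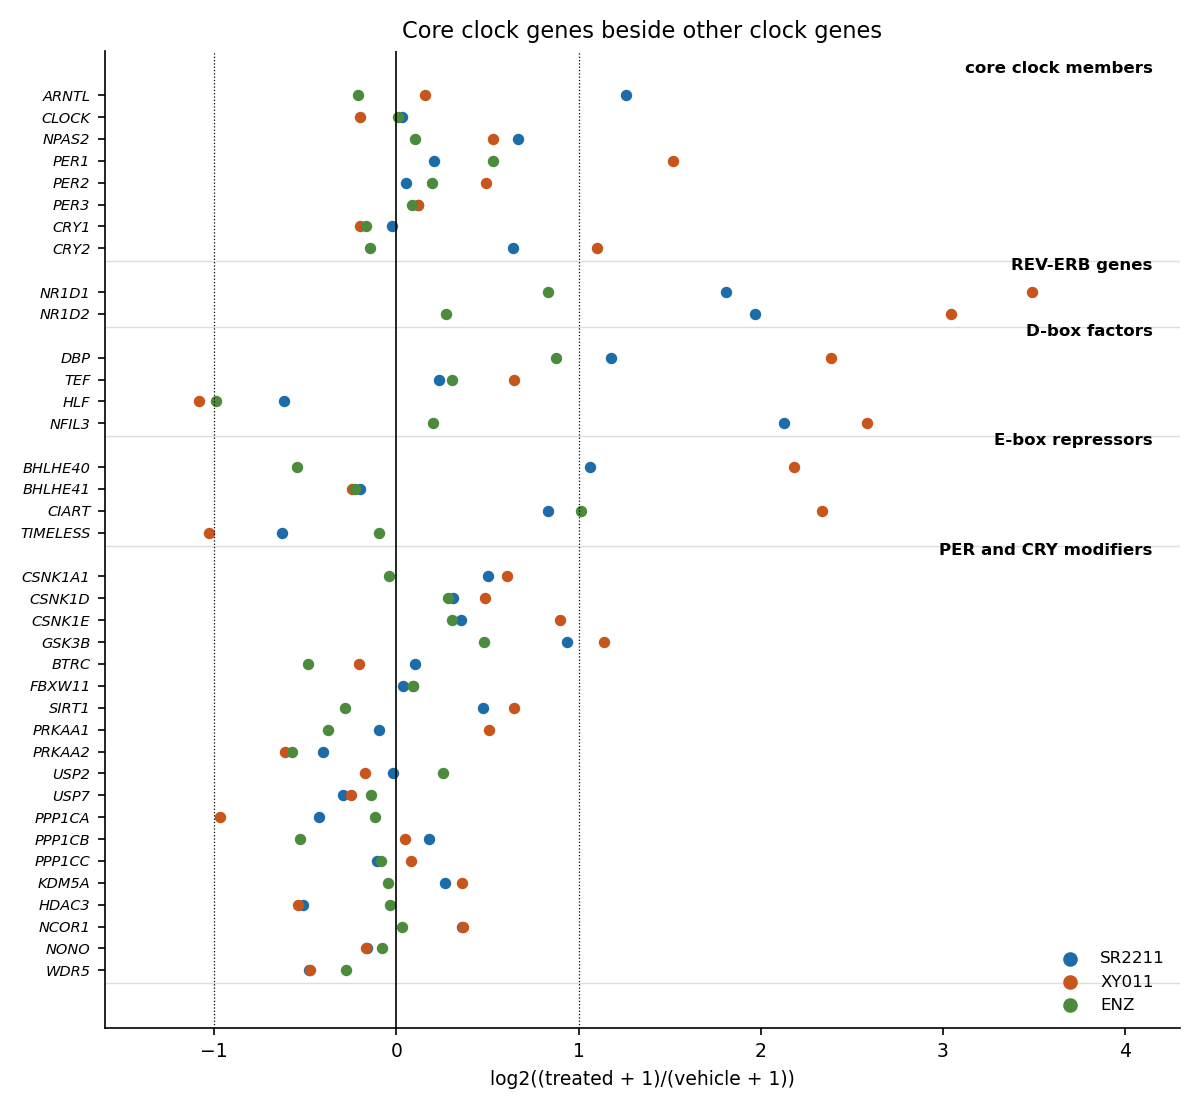
log2((treated + 1)/(vehicle + 1)) of the 8 core clock genes and of other clock genes grouped by role, coloured by compound, with dotted lines at -1 and 1. NR1D1 and NR1D2 lie between 1.81 and 3.49 with SR2211 and XY011, farther right than any core gene.

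Luminal prostate markers were all listed (8 of 8, with KLK3 at 1315 to 2484 in the vehicles), and 4, 5 and 2 of 8 were lower with SR2211, XY011 and ENZ, where 5.76%, 13.2% and 4.68% of all genes were. Of 11 markers of fibroblasts, leukocytes, endothelium and basal cells, CD3E and TP63 were listed in no table, and CD68 stood at 4.43 to 13.1. COL1A1 was called higher with ENZ (14.1 and 34.8 FPKM, log2 change 1.25), and KRT14 lower with XY011 (3.02 and 0.80 FPKM, -1.16). KRT14 fell by 1.00 in limma over the SR2211 and XY011 experiments (adjusted p = 0.0230). The summed level of those listed was 11.1 and 12.5 RPKM in the SR2211 pair, 16.7 and 18.0 FPKM in the XY011 pair, and 36.2 and 54.9 FPKM in the ENZ pair. Their part in the clock gene values was not tested. Strand-specific counting is not stated, and CLOCK shares 76 exonic bases with TMEM165 on the opposite strand. TMEM165 was at 37.6 and 20.9 RPKM in the SR2211 pair and at 23.5 and 6.45 FPKM in the XY011 pair. In the ENZ pair it was at 77.0 and 65.7 FPKM. PER3 shares 868 with UTS2, also on the opposite strand, which had no value in the 6 libraries. NPAS2 shares 748 with an antisense transcript, and PER1 shares 78 with the microRNA gene MIR6883 on its own strand.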

How the data were processed

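RNA-seq was deposited for 6 poly(A) TruSeq libraries of C4-2B cells, 1 per group, per the labels' protocols. The authors deposited RPKM for the SR2211 experiment and FPKM for the XY011 and ENZ experiments, per the file headers. BWA, Bowtie, Cufflinks and Cuffdiff, with GRCh37 and hg19, stand in the submitters' processing notes. The annotation, the strand setting and the tool behind each table were not given in the sources used here. The extraction protocols of the XY011 and ENZ libraries name other agents than their titles, and groups were taken from titles. Depth could be read back for the SR2211 pair alone, from microRNA genes of known length (26 of 26 and 34 of 35 whole within 0.01 read), and is unknown elsewhere.

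Rows of the ENZ table that shared a symbol were summed. Genes were matched by Entrez identifier, and in the ENZ table by symbol (15538) or synonym (1341), with 5763 unmatched names kept for its own pair. Small RNA genes were left out, and some genes of the lists are not reported here. Changes used a pseudocount of 1, a filter of 1 in either library (for limma, a mean of 1 over 4 libraries) and a size rule of 1, with no p-value. limma 3.58.1 in R 4.3.3 tested the shared change at 0.05. The code was tested on simulated data. Alternatives were pseudocounts of 0.1 and 5, no filter, centring, quantile scaling, a limma trend and no experiment term. The members and lists were chosen with earlier results of these data known, and the promoter motifs with the sequences in view. The rule for named genes took all 8 members, the genes of fixed lists, and genes of like pattern for members called in 2 or more experiments, of which there were 0. ARNTL2, ARNT and other relatives, and inputs to PER1 and PER2, stand in the closing section.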

Additional observations from a re-analysis of the deposited data

How the results depend on the processing

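Of 96 member changes under settings that could move them (no filter could not, since all members passed it), 92 kept their direction and their side of the size rule. With a pseudocount of 5, ARNTL with SR2211 went to 0.93 and CRY2 with XY011 to 0.69, which left 0 and 1 members called higher, and PER1 with XY011 stayed past the rule at 1.10. CRY1 with SR2211, after centring, and CLOCK with ENZ, after quantile scaling, changed sign at values below 0.05. Among all genes, a pseudocount of 0.1 gave 964 higher and 1052 lower with SR2211 and 1311 and 1456 with ENZ. A pseudocount of 5 gave 256 and 301 with SR2211, 394 and 665 with XY011, and 187 and 276 with ENZ.

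For the change shared by SR2211 and XY011, limma called 1 member, 1070 genes higher and 1597 lower. A pseudocount of 0.1 gave 0 members, 0 higher and 0 lower, although 2 members and 4189 genes had an unadjusted p under 0.05. Without the experiment term the counts were 0, 0 and 0, with 1 member and 2340 genes at that unadjusted p. Centring gave 3 members and 1622 genes higher, and quantile scaling 0 members (3 at an unadjusted p under 0.05) and 996 genes lower. At the longest annotated transcript, reads behind ARNTL were 201 and 522, behind NPAS2 163 and 297, and behind CRY1 203 and 198. No group holds replicates to pair by number, so the only pairing was by experiment. Each treated library was set against its own vehicle by the experiment term of limma, and leaving out 1 library leaves a single pair with no residual degree of freedom.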

Other observations

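Relatives of the clock activators in the bHLH-PAS family, which share their dimerisation domains, gave other patterns. Of 5 tested, 1 was higher and 0 lower with SR2211, and likewise with XY011 (5.1% and 7.59% of all genes higher). With ENZ, 2 of 6 were higher and 1 lower (3.68% and 4.68% of all genes). EPAS1 was among these, higher with ENZ at 3.78 and 8.81 FPKM. AHR, the dioxin receptor gene, was called higher with every compound, from 2.60 to 7.18 RPKM with SR2211, from 3.58 to 8.49 FPKM with XY011 and from 1.68 to 5.29 FPKM with ENZ. ARNTL2, the paralogue of ARNTL, was lower in each pair, at 5.30 and 3.70 RPKM, 6.55 and 3.31 FPKM, and 17.1 and 6.38 FPKM, and passed the size rule with ENZ (log2 -1.29). In limma, AHR rose by 1.12 over the SR2211 and XY011 experiments (adjusted p = 0.0160) and HIF1A, the hypoxia factor gene, by 0.81 (0.0341), while ARNTL2 had -0.62 (0.0809). The AHR and HIF1A calls are lost with a pseudocount of 0.1 or without the experiment term.

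Of the genes known as inputs to PER1 and PER2 or as their immediate early companions, 3 of 11 tested were higher with SR2211, 7 of 12 with XY011 and 2 of 12 with ENZ, and 0 were lower, where 5.1%, 7.59% and 3.68% of all genes were higher. FOS, among those 7, was at 0.001 FPKM in vehicle and 1.70 FPKM with XY011. It passed the filter only through the treated library, so its place in the count rests on that library. The list was chosen with earlier results of these data known, so its counts are no test against the shares of all genes. TSC22D3, which glucocorticoids induce, went from 44.3 to 141 RPKM with SR2211 and from 35.8 to 358 FPKM with XY011, and was at 181 and 300.02 FPKM with ENZ. CRTC3, a coactivator of CREB, went from 5.07 to 8.88 RPKM, from 4.38 to 11.8 FPKM and from 4.72 to 10.5 FPKM, and passed with XY011 and ENZ. NR3C1, the glucocorticoid receptor gene, was at most at 0.151 in the SR2211 and XY011 experiments.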
